A study of Rattus norvegicus with 2 samples.

Results

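The genes described here build the mitochondrial respiratory chain and ATP synthase, and they were chosen by symbol alone, with no measured value. Symbols for the mitochondrially encoded subunits (Mt-nd, Mt-co, Mt-cyb and Mt-atp), and the nuclear families Nduf, Cox4 to Cox8, Uqcr, Atp5 and Sdha to Sdhd, gave 111 members among the 32883 genes listed. Of these, 13 are mitochondrially encoded (7 for complex I, 1 for complex III, 3 for complex IV, 2 for complex V) and 98 are nuclear. Grouped by symbol, the nuclear members comprise 40 complex I subunit genes, 8 complex I assembly factors (Ndufaf), 4 genes of complex II, 9 of complex III, 20 of complex IV and 17 of complex V. The Atp5 family includes Atp5if1, an inhibitor of the enzyme. The cells were epithelium of the proximal jejunum of 2 male Sprague Dawley rats, aged 6 to 8 weeks and weighing 180 to 200 g, with 1 droplet library per rat. The rats had fasted overnight and received no treatment, so the groups compared are cell classes within both rats. Epithelium was released with EDTA and made into single cells with dispase.

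The chain passes electrons from NADH (complex I) and succinate (complex II) through complex III and cytochrome c to oxygen (complex IV), and the proton gradient built on the way drives ATP synthase (complex V). The mitochondrial genome encodes core subunits of every complex except complex II, and its genes are read as long joint transcripts that are then cut, whereas most subunits are nuclear genes that are transcribed singly and whose proteins are imported. Absorptive enterocytes are rich in mitochondria because nutrient uptake and lipid export use ATP. The share of mitochondrial transcripts is also a common limit for discarding damaged cells in droplet data.

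Rat 1 gave 12033 barcodes with 99986348 UMIs (unique molecular identifiers, each standing for 1 captured RNA molecule), and rat 2 gave 8252 barcodes with 66469907 UMIs. Members took up 21.6% of the UMIs of rat 1 and 33.7% of those of rat 2. The libraries stood apart in this respect: of barcodes over 5000 UMIs, 182 of 6217 (2.93%) in rat 1 but 1510 of 3813 (39.6%) in rat 2 exceeded the study's limit of 40% Mt- UMIs, so levels are given for each rat. Under the study's limits 5988 and 2230 cells were retained, and these were clustered without the members and named from marker genes. There were 1153 crypt-like cells from rat 1 and 34 from rat 2, and in the same order 4018 and 1124 enterocyte-like cells, 184 and 18 secretory progenitor-like cells, 114 and 30 goblet/Paneth-like cells, and 48 and 106 goblet-like cells. Enteroendocrine (EEC)-like cells numbered 21 and 11, chemosensory tuft-like cells 21 and 126, and CFTR high expresser (CHE)-like cells 7 and 74. A further 328 and 183 retained cells, many in clusters with markers of more than 1 class, were left unnamed and entered no comparison. UMIs were summed per rat and class, and each sum is 1 replicate (n = 2 rats per class). The sums ran from 67531 UMIs (CHE-like, rat 1) to 53834990 (enterocyte-like, rat 1).

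Some sums went against their labels in part. In rat 2, 90 of 124 cells clustered as crypt-like held at most 10 UMIs of 5 epithelial genes and were left out. The tuft-like sum of rat 1 carried crypt markers: the stem cell list summed to 971 CPM (UMIs per 1000000 UMIs of the class) there against 93.9 CPM in rat 2, while the tuft list summed to 2501 and 11130 CPM in rats 1 and 2. Secretory progenitor-like cells were set apart from goblet cells by cycling genes, whose list summed to 1096 and 1802 CPM there against 134 and 73.9 CPM in goblet/Paneth-like cells, but their leading genes were goblet markers (Agr2, Tff3, Clca1 and others), and the goblet list took 5.16% and 7.50% of their UMIs, against 37.0% and 38.7% in goblet-like cells. CHE-like cells had UMIs of Cftr, Best4, Otop2 and Meis1 but none of Car7, and their list summed to 2532 and 3707 CPM. The 6 enterocyte genes listed as possible free RNA (Fabp1, Apoa4 and 4 others) reached 9.08% and 34.4% of the enterocyte-like level in tuft-like cells, and 8.29% and 1.99% in CHE-like cells. In the other secretory and crypt-like sums they lay between 0.965% and 6.69%. Its part in the members' values was not tested.

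Of the 8 epithelial classes, goblet-like cells had the lowest summed Mt- encoded level in both rats. There, Mt- members made up 3.46% in rat 1 and 4.39% in rat 2, against 12.1% in rat 1 and 13.5% in rat 2 of crypt-like UMIs. Enterocyte-like cells held 15.0% in rat 1 and 25.3% in rat 2, which was 4.35 and 5.76 times the goblet-like level. Goblet-like cells thus sat at the bottom in both libraries, and enterocyte-like cells at the top in rat 2. In rat 1 the tuft-like sum, which carried crypt markers, reached the same level at 15.1%, but its cells had a median of 9.73%, with 33.3% of 21 cells over 20% Mt- UMIs, against a median of 14.2% in enterocyte-like cells. With at most 20% Mt- UMIs per cell the tuft-like sums were 10.1 and 11.2% and the enterocyte-like sums 13.5 and 17.2%, the highest of the 8 classes in both rats. Secretory progenitor-like cells held 10.97 and 12.1% in rats 1 and 2, and goblet/Paneth-like cells 9.76 and 9.99%. EEC-like cells (3.96 and 9.93%), tuft-like cells (15.1 and 12.3%) and CHE-like cells (10.3 and 5.83%) kept no common order between the rats. The CHE-like sum of rat 1 rests on 7 cells with a median of 5.24%, 1 of them over 20% Mt- UMIs, and with the limit at 20% the CHE-like sums were 5.55 and 5.53%. At that limit tuft-like cells lay below crypt-like (11.3 and 12.3%) and secretory progenitor-like cells (10.5 and 11.9%) in both rats, and EEC-like cells (3.96 and 7.67%) lay below CHE-like cells in rat 1 only. The limit of 40% caps the sum per cell, and it removed more cells of rat 2.

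Among the epithelial classes the nuclear members were also lowest in goblet-like cells, but nearly level between enterocyte-like and crypt-like cells. As a percentage of UMIs outside Mt- rows, they made up 7.78% in rat 1 and 5.99% in rat 2 in enterocyte-like cells and 7.29% in rat 1 and 5.61% in rat 2 in crypt-like cells, a ratio of 1.07 in each rat. Secretory progenitor-like cells (5.88 and 3.87%) came next in both rats, and goblet/Paneth-like cells held less (3.87 and 2.91%). Goblet-like cells had the lowest epithelial values at 1.69 and 0.696%, that is 4.60 and 8.61 times below enterocyte-like cells. Values were 2.71 and 1.79% in EEC-like, 5.78 and 2.61% in tuft-like and 4.50 and 1.68% in CHE-like cells, where the tuft-like sum of rat 1 is the one with crypt markers and the CHE-like sum of rat 1 that of 7 cells. In every class the nuclear level of rat 2 was below that of rat 1, whereas the Mt- level of rat 2 was above it in 6 of 8 classes. The number of Mt- UMIs per nuclear member UMI was accordingly higher in rat 2 in all 8 classes: 1.88 and 2.77 in crypt-like cells, 2.28 and 5.65 in enterocyte-like cells and 2.12 and 6.60 in goblet-like cells of rats 1 and 2. With at most 20% Mt- UMIs per cell, a limit that 84.2% of the enterocyte-like cells of rat 2 exceeded, the enterocyte-like ratios were 1.99 and 3.33 and the goblet-like ratios 2.12 and 4.71. Library, Cell Ranger version and rat cannot be told apart here.

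**Figure D1:**
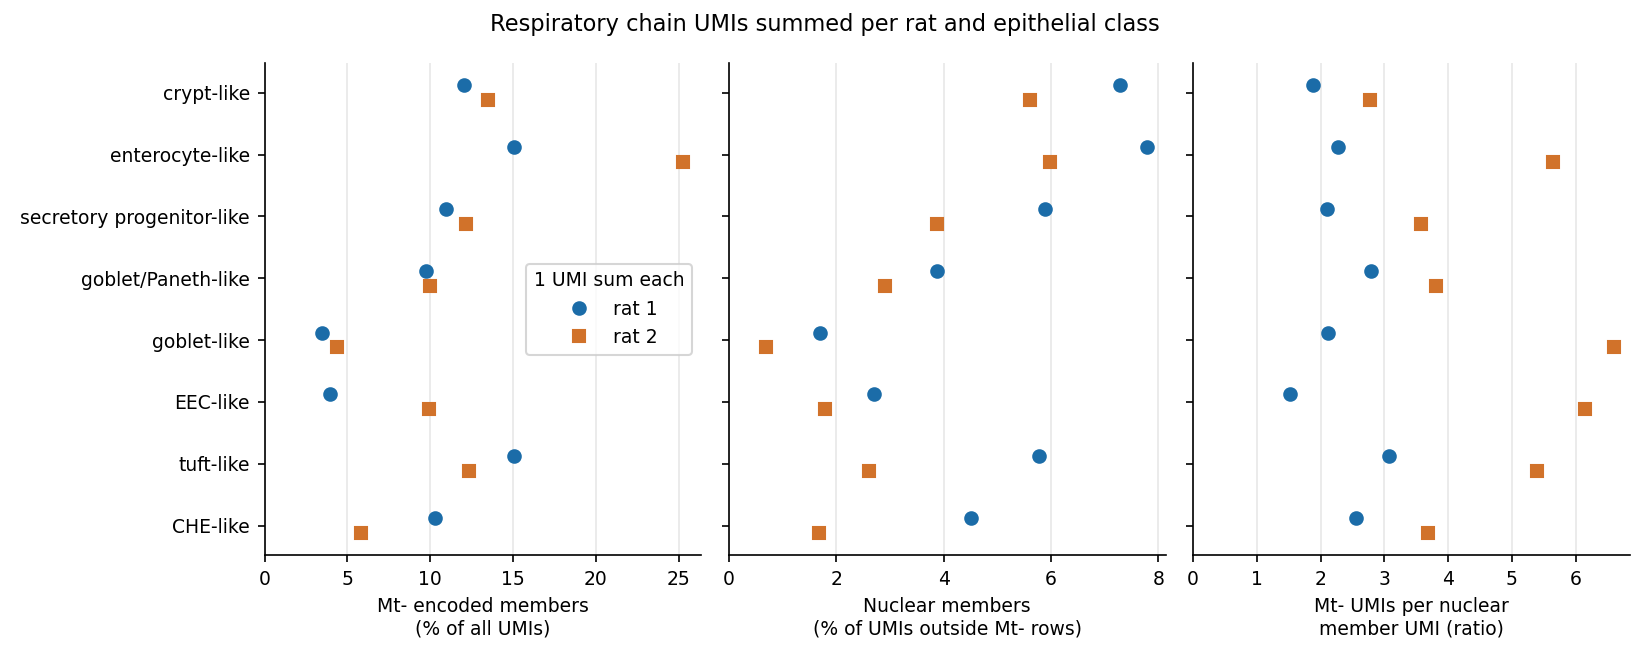
Summed members per rat (circles, rat 1; squares, rat 2) in 8 epithelial classes: Mt- members as a percentage of all UMIs, nuclear members as a percentage of UMIs outside Mt- rows, and the ratio of both UMI counts. Goblet-like cells are lowest in both sums, at 3.46 and 4.39% and 1.69 and 0.696%, and the ratio is higher in rat 2 in each class.

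Relative to their size, complex II and the assembly factors differed most between classes in their share of the nuclear sum, while in percentage points the larger complexes differed more. In rat 2 complex IV ran from 23.9% (secretory progenitor-like) to 35.0% (goblet-like) and complex V from 27.4% (goblet-like) to 36.8% (enterocyte-like). In rat 1 complex IV ran from 26.7% (crypt-like) to 31.5% (CHE-like) and complex V from 30.4% (goblet-like) to 34.7% (enterocyte-like). Complex I subunits took 26.4% and 27.0% of the nuclear sum in crypt-like cells of rats 1 and 2 and 23.1% and 22.4% in enterocyte-like cells, the lowest epithelial shares in both rats, and its highest shares were 29.4% and 30.6% in EEC-like cells. Complex II took 2.41% and 3.01% in crypt-like and 3.12% and 4.17% in enterocyte-like cells, but 1.72% and 2.66% in goblet-like and 1.496% and 2.07% in EEC-like cells. Complex I assembly factors, which help build the enzyme and are not part of it, took 0.674% and 0.673% in crypt-like cells and 0.252% and 0.171% in enterocyte-like cells. Thus from crypt-like to enterocyte-like cells the complex II share was higher and the assembly factor share lower in both rats. These shares are descriptions with no test.

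Among the 13 Mt- members, the share of the cytochrome c oxidase subunit Mt-co1 was higher at each step from crypt-like to enterocyte-like to goblet-like cells in both rats, and the shares of 5 of the 7 NADH dehydrogenase subunits (Mt-nd1, Mt-nd2, Mt-nd4, Mt-nd4l and Mt-nd5) were lower at each step. Mt-nd6 and, in rat 1, Mt-nd3 departed from this order. Mt-co1, which holds the catalytic centre of complex IV, made up 10.1% and 13.9% of the Mt- sum in crypt-like cells of rats 1 and 2, 14.7% and 19.6% in enterocyte-like cells and 22.4% and 29.9% in goblet-like cells. Mt-nd4 made up 5.81% and 5.48% in crypt-like, 3.28% and 3.34% in enterocyte-like and 3.22% and 2.55% in goblet-like cells. Mt-nd4l, whose gene overlaps Mt-nd4 so that the split of their UMIs is uncertain, made up 0.329% and 0.292%, 0.166% and 0.149% and 0.127% and 0.0875%. All 7 complex I genes together made up 20.5 and 19.3% of the Mt- sum in crypt-like cells, 14.6 and 13.8% in enterocyte-like cells and 12.6 and 9.97% in goblet-like cells, so the order was the same in both rats. Mt-co2, which accepts electrons from cytochrome c, made up 21.8% and 17.9% in crypt-like, 24.8% and 20.7% in enterocyte-like and 23.0% and 18.3% in goblet-like cells. Mt-co3 made up 16.1% and 22.3%, 15.3% and 19.9% and 17.8% and 20.6% in the same order of classes. The ATP synthase subunit Mt-atp6 made up 16.4% and 15.6%, 16.3% and 16.9% and 13.4% and 13.7%. These 3 lay within a narrower range than Mt-co1 in each rat. Cytochrome b, Mt-cyb, was lower in rat 2 within each of these classes. It made up 15.0% and 10.9% in crypt-like, 14.2% and 8.96% in enterocyte-like and 10.7% and 7.48% in goblet-like cells.

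Mt-nd1 made up 6.72% and 5.94% of the Mt- sum in crypt-like, 5.07% and 4.13% in enterocyte-like and 4.51% and 2.99% in goblet-like cells. Mt-nd2 made up 6.09% and 6.30%, 4.99% and 5.26% and 3.58% and 3.53% in these classes. Both were thus lower in enterocyte-like than in crypt-like cells and lowest in goblet-like cells in each rat. Mt-nd5 made up 0.740% and 0.579% in crypt-like, 0.495% and 0.392% in enterocyte-like and 0.404% and 0.329% in goblet-like cells. Mt-nd3 made up 0.664% and 0.647%, 0.510% and 0.516% and 0.531% and 0.358% in these classes. Mt-nd6 made up 0.189% and 0.0532%, 0.105% and 0.0313% and 0.239% and 0.123%, and thus was highest of the 3 classes in goblet-like cells in both rats. Mt-atp8 made up 0.0635% and 0.0725%, 0.0523% and 0.0654% and 0.0673% and 0.0697%. Mt-nd6 lies on the opposite strand to the other protein genes, and Mt-atp8 overlaps Mt-atp6. In edgeR's quasi-likelihood test on the sums, none of the 13 passed an adjusted p of 0.05 in any of the 6 comparisons below, whereas with the rat as a block, which pairs the sums by animal, 8 of the 13 were called higher in enterocyte-like than in crypt-like cells and 0 in the other 5 comparisons. Unadjusted p was under 0.05 for 5 Mt- members between enterocyte-like and crypt-like cells (3661 of all 8648 genes, a similar share), for 1 in the CHE-like and for 1 in the goblet comparison, and for 0 in the others. DESeq2 called 3 higher in enterocyte-like cells and 1 lower on the goblet side, but its share of all genes is not given, so nothing is read from these counts.

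The first comparison set absorptive enterocyte-like cells against crypt-like cells, which hold the stem and dividing cells. The complex IV isoform Cox7a1 and 2 of 4 complex II genes were higher in enterocyte-like cells, and 2 of 8 complex I assembly factors were lower, and of these 5 calls only that of Cox7a1 held when any 1 of the 4 sums was left out. Of 98 nuclear members 85 passed the filter on low counts, 3 were called higher and 2 lower at an adjusted p under 0.05. In the same fit 15.5% of the 8648 genes tested were called higher and 14.4% lower, and the members' shares lay below these, so the counts alone are no result about the module. Their median log2 fold change was 0.73 beside 0.06 over all genes tested.

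Cox7a1, the isoform of cytochrome c oxidase subunit 7a best known from heart and skeletal muscle, stood at 72.5 CPM (rat 1) and 116 CPM (rat 2) in enterocyte-like cells. In crypt-like cells it stood at 6.29 CPM (rat 1) and 3.26 CPM (rat 2). The groups did not overlap (log2 fold change 4.96 ± 0.77 (SE), adjusted p = 0.000925). Among the other epithelial sums the CHE-like sum of rat 2 held 36.2 CPM. That of rat 1 held 14.8 CPM from 1 UMI, below its level of 3 UMIs (44.4 CPM). The remaining sums held at most 7.82 CPM (tuft-like, rat 2). The EEC-like sums of both rats held 0 UMIs, with a limit of 3 UMIs equal to 16.7 and 19.2 CPM. The tuft-like sum of rat 1 also held 0 UMIs, with a limit of 13 CPM. As a share of the UMIs of Cox7a1 and Cox7a2, Cox7a1 took 5.97% and 15.1% in enterocyte-like cells of rats 1 and 2, against 0.647% and 0.525% in crypt-like cells, a share that is compared between classes and is not a ratio of levels per length.

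Succinate dehydrogenase, complex II, which also serves the citric acid cycle, was the complex with the largest share of called genes. Its iron-sulfur subunit Sdhb stood at 876 and 708 CPM in enterocyte-like cells of rats 1 and 2 and at 567 and 581 CPM in crypt-like cells (log2 fold change 1.35 ± 0.48 (SE), adjusted p = 0.0484). Sdhc, a membrane anchor, stood at 419.6 and 417 against 346 and 304 CPM (log2 fold change 1.25 ± 0.43 (SE), adjusted p = 0.0436). Both rats thus had the higher value in enterocyte-like cells, by less than 2-fold in CPM. The flavoprotein Sdha (288 and 288 against 218 and 247 CPM, adjusted p = 0.118) and the anchor Sdhd (477 and 452 against 414 and 330.4 CPM, adjusted p = 0.0896) did not pass. With the rat as a block all 4 complex II genes were called higher, with adjusted p between 0.00543 and 0.0433.

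Of the 8 assembly factors 2 were called lower. Ndufaf4 stood at 6.52 and 3.60 CPM in enterocyte-like cells and at 46.8 and 52.1 CPM in crypt-like cells (log2 fold change −2.42 ± 0.84 (SE), adjusted p = 0.0465). Ndufaf6 stood at 9.90 and 2.77 against 50.05 and 32.6 CPM (log2 fold change −1.94 ± 0.70 (SE), adjusted p = 0.0488). All 8 had a lower CPM in enterocyte-like cells in both rats, as had the median gene, whose log2 CPM difference was −0.63 in rat 1 and −1.31 in rat 2. Their median log2 fold change was −0.98 with Ndufaf1 at −0.06, near the median gene at 0.06. The 35 complex I subunits tested had a median of 0.61, and edgeR called 0 of them, with 2 at an unadjusted p under 0.05. With the rat as a block 7 of the 35 were called higher, a smaller share than the 23.5% of all genes.

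Promoter sequences are shown for Cox7a1 and Ndufaf4, which were called above, for Atp5mc1, and for the paired isoforms Cox7a2 and Atp5mc2. Sequences of other called members are not shown. RefSeq windows of GRCr8, from 250 bases before to 50 after the gene start, were matched by symbol for 81 of 94 nuclear member symbols, and 5 strings of letters were searched on both strands, none of which contains another. GCATGCGC (NRF1) occurred in 13.6% of the members' windows and 2.47% of all 33469 windows, AAGATGGC (YY1) in 21% and 3.17%, CCGGAAG (ETS family) in 27.2% and 8.75%, and AAGGTCA (estrogen-related receptors) in 13.6% and 4.61%. CCAAT (NF-Y) occurred in 34.6% and 37.5%. The first 4 strings were thus more frequent in the members' windows and CCAAT was not. The isoform pairs differed: Cox7a1 and Atp5mc1 (the latter called higher in enterocyte-like cells with the rat as a block, adjusted p = 0.0269) held only CCAAT (1 and 4 matches), Cox7a2 held 1 ETS string, and Atp5mc2 and Ndufaf4 held 2 NRF1 matches each (the string is nearly its own reverse complement, so 1 place can count on both strands). Among other called members the strings did not follow the direction of change. Sdhb, called higher, held 1 NRF1 and 1 ETS match, and Sdhc, called higher, held 1 YY1 match. Of assembly factors called lower with the rat as a block, Ndufaf5 held 2 NRF1 matches and Ndufaf7 held none of the strings. A match is a description of letters and not a binding site. The windows, written along the gene's strand with the matches in capitals, are as follows.
Cox7a1, chr1:94568966-94569265 (+ strand): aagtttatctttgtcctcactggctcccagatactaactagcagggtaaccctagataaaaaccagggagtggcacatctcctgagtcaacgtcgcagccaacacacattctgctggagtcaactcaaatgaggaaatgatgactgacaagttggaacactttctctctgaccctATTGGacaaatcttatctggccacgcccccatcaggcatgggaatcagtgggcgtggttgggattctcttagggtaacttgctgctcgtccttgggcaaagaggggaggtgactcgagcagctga
Cox7a2, chr8:89601100-89601399 (- strand): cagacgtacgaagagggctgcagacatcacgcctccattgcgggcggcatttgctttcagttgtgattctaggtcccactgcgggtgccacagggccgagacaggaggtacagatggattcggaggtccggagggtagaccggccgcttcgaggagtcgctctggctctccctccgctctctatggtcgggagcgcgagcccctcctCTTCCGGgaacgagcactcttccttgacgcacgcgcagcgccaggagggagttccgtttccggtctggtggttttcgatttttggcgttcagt
Atp5mc1, chr10:81523296-81523595 (- strand): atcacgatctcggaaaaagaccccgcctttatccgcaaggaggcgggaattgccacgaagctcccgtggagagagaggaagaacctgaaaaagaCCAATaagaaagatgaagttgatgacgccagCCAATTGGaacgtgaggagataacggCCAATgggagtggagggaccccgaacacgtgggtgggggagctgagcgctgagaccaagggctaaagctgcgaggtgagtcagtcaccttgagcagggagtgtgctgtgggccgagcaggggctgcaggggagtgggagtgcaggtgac
Atp5mc2, chr7:135678169-135678468 (- strand): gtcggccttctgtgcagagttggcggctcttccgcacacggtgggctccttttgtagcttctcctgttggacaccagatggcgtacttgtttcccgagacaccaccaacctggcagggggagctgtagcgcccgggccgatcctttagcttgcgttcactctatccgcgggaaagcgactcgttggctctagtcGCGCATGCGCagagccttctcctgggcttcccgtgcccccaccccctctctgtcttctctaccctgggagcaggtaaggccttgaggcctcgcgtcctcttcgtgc
Ndufaf4, chr5:43401545-43401844 (+ strand): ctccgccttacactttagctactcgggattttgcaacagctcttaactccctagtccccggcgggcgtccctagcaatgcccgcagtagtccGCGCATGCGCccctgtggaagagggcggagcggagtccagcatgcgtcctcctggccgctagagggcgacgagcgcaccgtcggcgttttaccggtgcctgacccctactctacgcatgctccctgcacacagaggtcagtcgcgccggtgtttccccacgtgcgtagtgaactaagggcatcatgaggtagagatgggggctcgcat

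Apart from that of Cox7a1 these calls were close to the threshold. Under several settings of the closing section only 1 nuclear member was called higher, so the calls of Sdhb and Sdhc did not both hold there. Leaving out the crypt-like sum of rat 2, with 34 cells, took the median of the nuclear members from 0.73 to 0.05 and the adjusted p of Sdhb to 0.39, of Sdhc to 0.463 and of Ndufaf4 to 0.0585. Without the enterocyte-like sum of rat 1 these adjusted p were 0.117, 0.0781 and 0.102, without that of rat 2 0.161, 0.205 and 0.235, and without the crypt-like sum of rat 1 0.152, 0.107 and 0.154. Ndufaf6 was lost without the enterocyte-like sum of rat 2 (0.307) and without the crypt-like sum of rat 1 (0.324). Cox7a1 passed in all 4 of these fits. With the rat as a block, 29 nuclear members were called higher and 4 lower, beside 23.5% and 22.6% of all genes tested, and 8 of 13 Mt- members were called higher. The Mt- calls were led by Mt-co1 (log2 fold change 2.05 ± 0.54, adjusted p = 0.00631), Mt-co2 (1.74 ± 0.54, 0.0156) and Mt-atp6 (1.61 ± 0.55, 0.0256), with Mt-co3, Mt-cyb, Mt-atp8, Mt-nd2 and Mt-nd3 at adjusted p between 0.0232 and 0.0498. In CPM, however, Mt-nd3 was lower in enterocyte-like cells of rat 1 (log2 difference −0.06) and Mt-nd2 nearly level there (0.03), and scaling by library size alone took the median of the Mt- members from 1.32 to 0.39. The 4 genes called lower were all assembly factors (Ndufaf4, Ndufaf5, Ndufaf6 and Ndufaf7).

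The direction of the nuclear members depended on the scaling. TMM scaling gave a median of all genes of 0.06, and scaling by library size alone gave −0.82. In the enterocyte-like sums the 6 abundant genes Fabp1, Fabp2, Apoa1, Apoa4, Alpi and Rbp2 alone held 10.9% and 9.29% of the UMIs. The nuclear median flipped from 0.73 to −0.12 with it, whereas its distance to the median gene was 0.68 and 0.71, and 75 of 85 members lay above the median gene in either case. Of all calls, 51.8% were higher with TMM and 22% with library size alone. The members were therefore higher relative to the typical gene, while their summed share of UMIs outside Mt- rows was 1.07 times that of crypt-like cells.

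Among genes that feed the chain, some lists held more calls toward enterocyte-like cells than the 15.5% of all genes called higher, and others did not. Of 10 citric acid cycle genes 5 were called higher in enterocyte-like cells, among them Mdh2 (malate dehydrogenase, 2.99 ± 0.70 on the log2 scale, adjusted p = 0.00684), Cs (citrate synthase, 2.89 ± 0.52, 0.00166) and Dlst (2.78 ± 0.46, 0.00103), and 0 were called lower. Of 12 fatty acid oxidation genes tested 4 were called higher, led by the acyl-CoA dehydrogenases Acadm (3.28 ± 0.53) and Acadvl (2.02 ± 0.40) and the carnitine carrier Slc25a20 (1.68 ± 0.41). The ADP/ATP carrier Slc25a5 (2.23 ± 0.47) and the phosphate carrier Slc25a3 (1.56 ± 0.54) were called higher, as were Gpd2 (2.73 ± 0.48), which passes electrons from glycerol phosphate to the chain, and Etfb (1.22 ± 0.43), part of the flavoprotein that takes them from fatty acid oxidation. Gpd2 and Etfb were 2 of 6 electron carrier genes tested, of which 1, Dhodh (−2.13 ± 0.75), was called lower. Pyruvate entry had 0 of 7 genes called, and glycolysis 3 of 15 higher and 2 lower. With the rat as a block the counts were 7 higher for fatty acid oxidation, 7 higher and 2 lower for glycolysis and 1 higher for pyruvate entry, beside 23.5% of all genes called higher and 22.6% lower. Of 16 regulators of mitochondrial genes 4 were called lower, beside 14.4% of all genes, led by Pprc1 (−3.32 ± 0.66), Tfb1m (−3.22 ± 0.95) and Tfam (−2.79 ± 0.66), which packages and transcribes mitochondrial DNA, and 1, the nuclear receptor Esrra (2.04 ± 0.57), was called higher. Of 72 mitochondrial ribosome genes 8 were called lower, a smaller share than the 14.4% of all genes, led by Mrps27 (−2.17 ± 0.69), Mrps2 (−2.14 ± 0.68) and Mrps18b (−1.94 ± 0.61), and with the block 22 were lower and 1 higher, where 22 of 72 is a larger share than the 22.6% of all genes called lower.

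The second comparison followed enterocyte-like cells along a villus gene score that contains no member. Cells of each rat were ordered by the score and cut into tertiles, 3 ranges of nearly equal cell number (1340, 1339 and 1339 cells in rat 1, 375, 375 and 374 in rat 2), which are ranges of a score and not cell types. Scores ran from 0 to 1.42, 1.42 to 2.13 and 2.13 to 4.07 in rat 1. In rat 2 they ran from 0.137 to 2.22, 2.23 to 3.07 and 3.07 to 4.22, so tertiles of the same name cover different scores in the 2 rats. From the lower to the upper tertile the summed nuclear level was lower at each step in both rats, while the Mt- sum was not. Nuclear members made up 9.59%, 8.41% and 4.99% of UMIs outside Mt- rows in the lower, middle and upper tertile of rat 1. In rat 2 they made up 8.23%, 5.61% and 2.12%. The lower tertile thus exceeded the upper 1.92-fold and 3.88-fold, and 86 of the 98 nuclear members, 88 of which had UMIs, had their upper tertile below their lower tertile in both rats. The median gene also was lower in CPM in the upper tertile, by a log2 difference of −0.65 in rat 1 and −0.85 in rat 2, against −1.04 and −2.19 for the median nuclear member. The Mt- members made up 14.8%, 16.5% and 13.8% of all UMIs in rat 1 and 24.1%, 25.3% and 27.4% in rat 2. Mt- UMIs per nuclear member UMI therefore went from 1.80 to 3.20 in rat 1 and from 3.86 to 17.8 in rat 2. Depth moved with the score: median UMIs per cell were 11826, 12607, 11392 in rat 1 and 29915, 25557, 14480 in rat 2. The part of depth was not tested. Thinning each cell to 5000 UMIs leaves the expected share of a cell unchanged, so it cannot show that part. The mean log2 ratio of the nuclear share was −1.56 with thinning and −1.45 without.

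With the rats as replicates and no block, edgeR called 0 of 87 nuclear members tested and 0 of 13 Mt- members, and likewise 0% of the 9902 genes tested in either direction. Unadjusted p was under 0.05 for 15 nuclear members and for 2431 of all genes tested, a larger share. DESeq2 called 8 nuclear members lower, but its share of all genes is not given, so nothing is read from that count. Each rat contributed all 3 tertiles, and with the rat as a block 20 nuclear members were called lower and 0 higher, beside 15.2% of all genes called lower and 14.3% higher. The median over the nuclear members was −0.79 in that fit, beside −0.04 over all genes. Library size scaling moved the median of all genes to −0.76 from −0.03 and that of nuclear members to −1.40 from −0.72 in the fit without the block. Of the 20 called members 7 were assembly factors, 12 complex I subunits by symbol (among them Ndufa4, now placed in complex IV) and 1 (Uqcr11) a complex III subunit, while 0 of 4 complex II members, 0 of 13 members with Cox symbols and 0 of 16 complex V members tested were called.

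Ndufaf4, an early assembly factor, had the largest called difference. Its level was 16.5, 1.31 and 0.675 CPM in the lower, middle and upper tertile of rat 1 and 7.76, 0.660 and 0.168 CPM in rat 2 (blocked log2 fold change −4.08 ± 0.42, adjusted p = 0.00727), where the upper tertile of rat 2 held 1 UMI of Ndufaf4 among 5958930. Most of the difference lay between the lower and the middle tertile in both rats. Ndufaf6 went from 22.4 to 1.72 CPM in rat 1 and from 5.03 to 0.336 CPM in rat 2 (−2.97 ± 0.40, 0.00974). Ndufaf7, Ndufaf8, Ndufaf5, Ndufaf2 and Ndufaf3 followed with log2 fold changes from −2.59 to −1.80. Ndufaf1 was the one assembly factor not called, at −0.81 ± 0.31 (adjusted p = 0.105). The factors were scarce rows, with 1126 and 224 UMIs of Ndufaf1 over all barcodes of rats 1 and 2.

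The 12 called complex I subunits had blocked log2 fold changes from −1.94 to −1.22. Ndufs8, an iron-sulfur subunit of the arm that passes electrons to ubiquinone, stood at 470.0, 301 and 115 CPM across the tertiles of rat 1 and 350.3, 159.6 and 34.6 CPM in rat 2 (−1.91 ± 0.34, 0.0172). Ndufab1, the mitochondrial acyl carrier protein, stood at 716, 411 and 182 and 502, 236 and 44.3 CPM (−1.94 ± 0.39, 0.0221). Both values were lower at each step in each rat. Ndufb10, Ndufb5, Ndufa9, Ndufa4, Ndufv3, Ndufc1, Ndufa10l1, Ndufv1 and Ndufs3 had blocked log2 fold changes from −1.57 to −1.22. The mitochondrial ribosome list did likewise, with 57 of 73 genes called lower with the block, 0 without it (edgeR; 42 at an unadjusted p under 0.05).

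The Mt- members split by gene rather than moving together. Mt-co1 stood at 16248, 22713 and 28498 CPM in the lower, middle and upper tertile of rat 1 and at 37843, 49725 and 72148 CPM in rat 2. Mt-nd4 stood at 7285, 4422 and 2753 CPM and 10269, 7888 and 5879 CPM. Mt-nd4l stood at 388, 222 and 118 CPM and 516, 329 and 187 CPM. Mt-co1 was thus higher, and Mt-nd4 and Mt-nd4l lower, at each step in both rats. As a share of the Mt- sum, Mt-co1 went from 11.01% to 20.7% in rat 1 and from 15.7% to 26.3% in rat 2. Mt-cyb went from 15.7% to 11.8% and from 10.7% to 6.47%, and Mt-nd1 from 6.08% to 3.99% and from 4.98% to 2.71%. Mt-atp6 lay between 16.2% and 17.6%. None of these differences passed the test: with the block the adjusted p was 0.0511 for Mt-co1 and 0.0712 for Mt-nd4l.

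**Figure D2:**
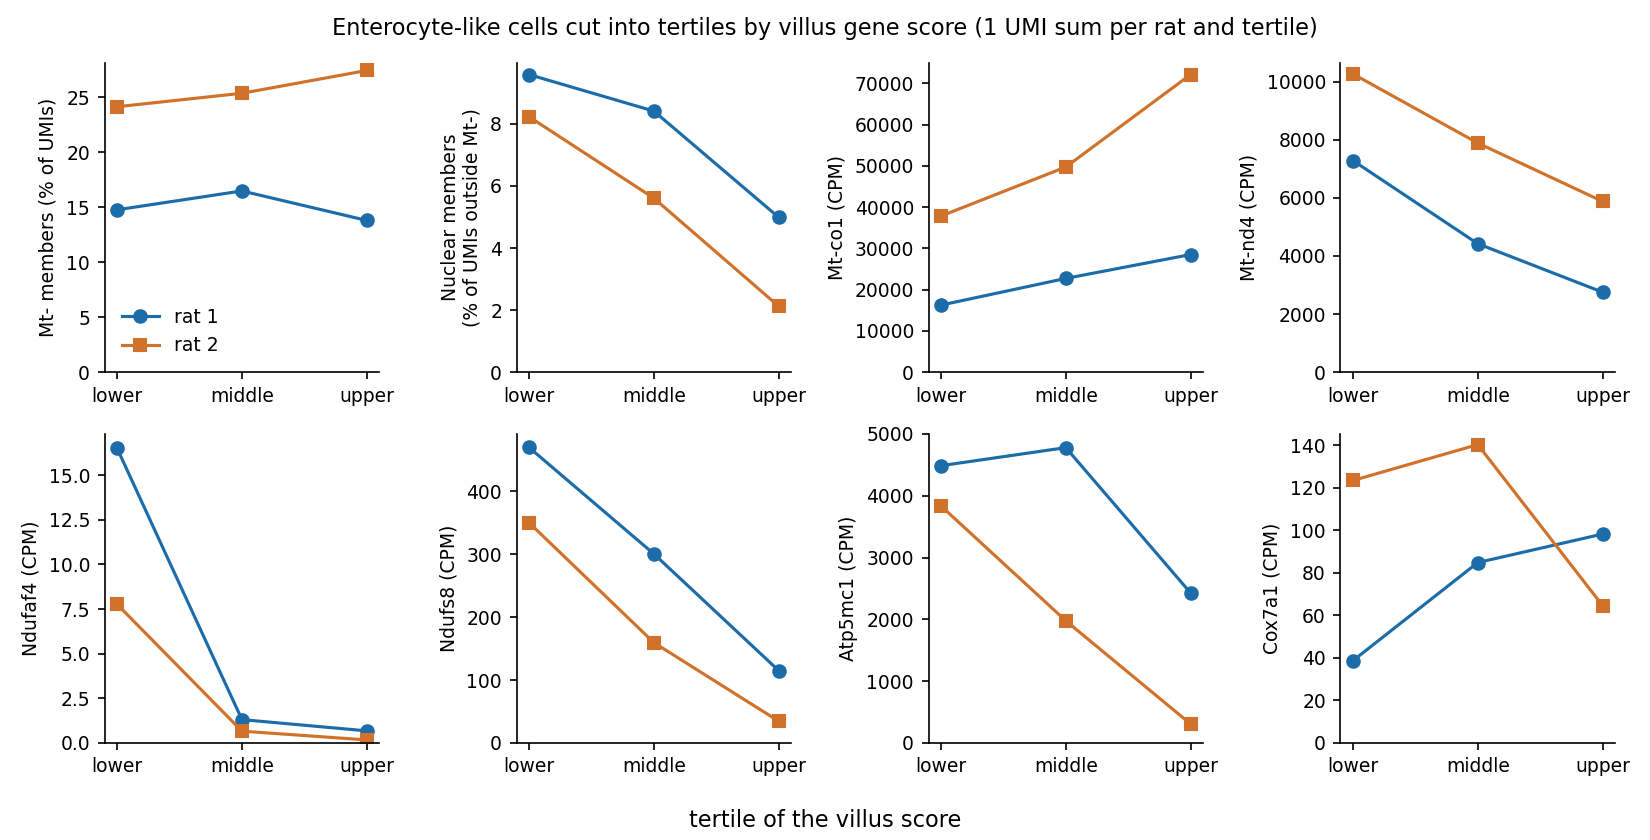
Enterocyte-like cells in tertiles of the villus score (x axis), with 1 UMI sum per rat and tertile: the summed Mt- and nuclear members as percentages, and 6 members in CPM. The nuclear sum is 4.99% and 2.12% in the upper tertile, and Mt-co1 reaches 28498 and 72148 CPM. From the lower to the upper tertile Cox7a1 takes opposite directions in the 2 rats, whose tertiles cover different score ranges.

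Over the tertiles of its own rat, Cox7a1 stood at 38.7, 84.8 and 98.2 CPM in rat 1 and 123, 140.3 and 64.6 CPM in rat 2. Its upper tertile was therefore above the lower in rat 1 and below it in rat 2. The upper tertile began at a score of 2.13 in rat 1 and 3.07 in rat 2, so unlike ranges are compared between the rats. Atp5mc1, a gene for the rotor ring subunit c of ATP synthase, stood at 4487, 4779 and 2426 CPM and 3834, 1976 and 306 CPM. The lower tertile exceeded the upper 1.85-fold in rat 1 and 12.5-fold in rat 2, and the gene was not called with the block (adjusted p = 0.147). The inhibitor Atp5if1 differed less, at 1813, 1639 and 1283 CPM and 1282, 1079 and 734 CPM.

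**Figure D3:**
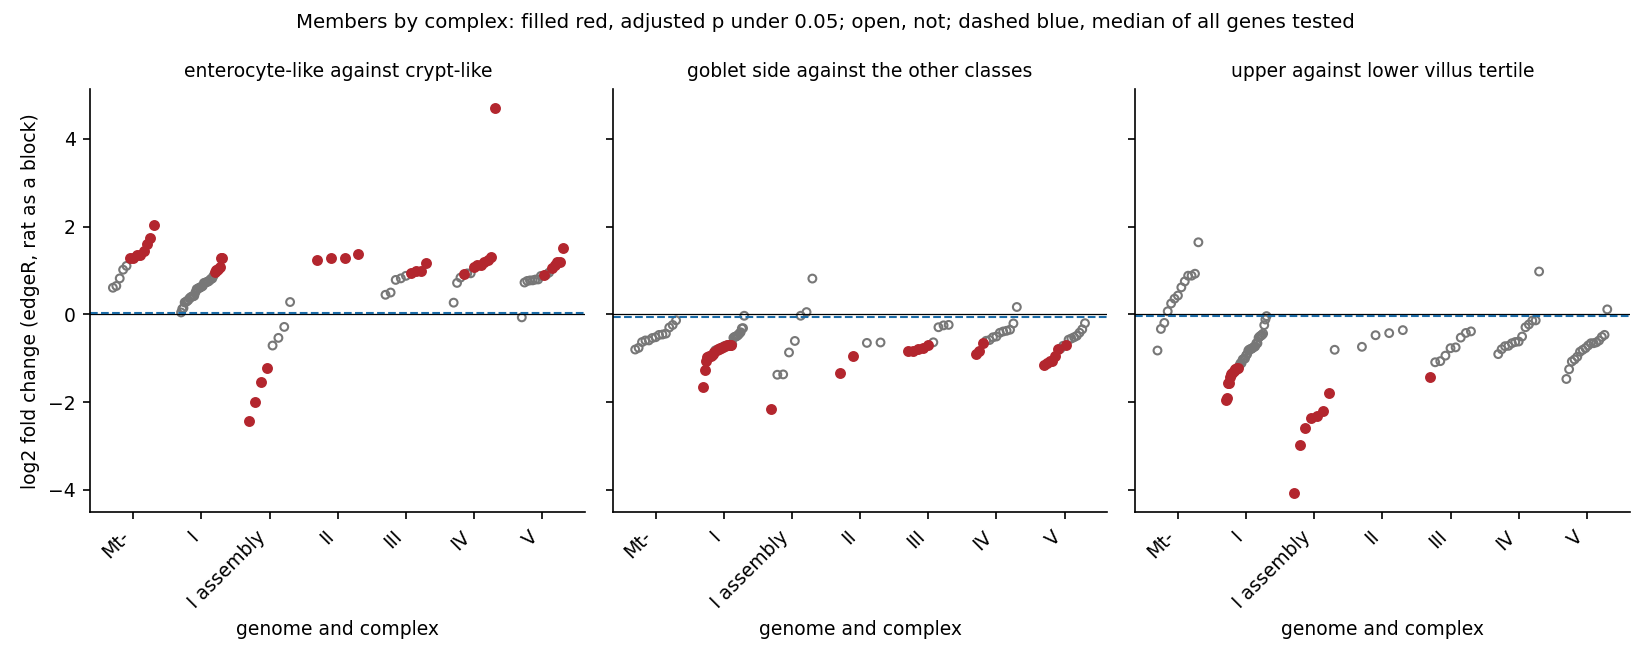
Log2 fold changes of the members by genome and complex in 3 comparisons, from edgeR with the rat as a block (y axis, log2 scale; each point is 1 gene, ordered by size within its complex). Filled points have an adjusted p under 0.05, and the dashed line is the median of all genes tested. Assembly factors reach −2.42 against crypt-like cells and −4.08 in the upper tertile.

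The goblet side, mucus-producing goblet-like and goblet/Paneth-like cells averaged, held lower levels of 4 nuclear members than the mean of the crypt-like, enterocyte-like, EEC-like, tuft-like and CHE-like classes. Secretory progenitor-like cells, which carry goblet markers, entered neither side. Of 85 nuclear members tested 4 were called lower and 0 higher, beside 2.84% of all genes called lower and 7.26% called higher. Unadjusted p was under 0.05 for 29 of the 85 and for 2022 of all 8648 genes (edgeR). The median log2 fold change was −0.67 beside −0.06 over all genes. With the rat as a block 39 were called lower, beside 6.3% of all genes lower and 10.6% higher: 21 of 35 complex I subunits, 5 of 9 in complex III, 7 of 16 in complex V, 3 of 13 in complex IV, 2 of 4 in complex II and 1 of 8 assembly factors. Scaling by library size alone moved the median of all genes to −0.40 and that of the members to −1.02. It called 16 members lower, beside 541 of all 8648 genes. It moved the share of all calls that were higher from 71.9% to 43.6%.

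Ndufa10l1 (ENSRNOG00000016470), a gene that resembles the complex I accessory subunit gene Ndufa10, stood at 2.59 and 2.84 CPM in goblet-like and 27.2 and 66.7 CPM in goblet/Paneth-like cells of rats 1 and 2. The goblet-like values rest on 1 and 4 UMIs, that of rat 1 below the level of 3 UMIs (7.76 CPM). Enterocyte-like cells held 76.7 and 74.8 CPM and crypt-like cells 92.9 and 130.2 CPM (log2 fold change −1.65 ± 0.34 (SE), adjusted p = 0.00616). Both goblet classes lay below enterocyte-like and crypt-like cells in each rat. Goblet/Paneth-like cells, however, lay above EEC-like cells in both rats (3 UMIs each, 16.7 and 19.2 CPM). They also lay above tuft-like and CHE-like cells in rat 2, though not in rat 1. Sdhb stood at 85.3 and 57.6 CPM in goblet-like and 183 and 164 CPM in goblet/Paneth-like cells (log2 fold change −1.34 ± 0.31 (SE), adjusted p = 0.0122), with goblet-like cells lowest in each rat and EEC-like cells (156 and 96.2 CPM) next. Sdhc stood at 69.8 and 54.8 and 160.1 and 121 CPM (log2 fold change −0.95 ± 0.27 (SE), adjusted p = 0.0420). Atp5f1a, the alpha subunit of the catalytic head of ATP synthase, stood at 129 and 58.3 and 396 and 611 CPM (log2 fold change −1.06 ± 0.31 (SE), adjusted p = 0.0441), against 1097 and 1116 CPM in enterocyte-like cells. Its goblet/Paneth-like level lay above the EEC-like level in both rats. In rat 2, but not in rat 1, it also lay above the tuft-like and CHE-like levels. Leaving out any 1 of the 4 goblet-side sums took Sdhb to an adjusted p between 0.0512 and 0.111, Sdhc to between 0.0791 and 0.276, and Atp5f1a to between 0.0694 and 0.22, while Ndufa10l1 passed in all 4. Thinned to 5000 UMIs per cell, Ndufa10l1 did not pass (adjusted p = 0.163).

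Around the chain, the glycolysis genes Pgam1 (−1.79 ± 0.36) and Eno1 (−1.63 ± 0.39), the fatty acid oxidation genes Acaa2 (−1.77 ± 0.33) and Acadvl (−1.09 ± 0.28), the pyruvate dehydrogenase gene Pdhb (−1.08 ± 0.28) and the inner membrane organiser Immt (−1.36 ± 0.38) were called lower on the goblet side. Of 72 mitochondrial ribosome genes 3 were called lower (Mrps25, Mrps6 and Mrpl40), beside 2.84% of all genes, and with the block 10, beside 6.3% of all genes. The block also gave 4 of 12 fatty acid oxidation and 2 of 6 electron carrier genes lower. Hexokinase 2 (Hk2), the first enzyme of glycolysis, was called higher at 4.02 ± 0.27, with 233 and 171 CPM in goblet-like and 157 and 251 CPM in goblet/Paneth-like cells against 3.77 and 2.58 CPM in enterocyte-like cells.

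EEC-like cells, which release hormones, held lower levels of 2 nuclear members than the mean of the other classes. Of 85 nuclear members 2 were called lower and 0 higher, beside 0.96% of all genes lower and 5.49% higher, and with 2 calls nothing more is read from the count. Unadjusted p was under 0.05 for 14 of the 85 and for 1591 of all 8648 genes (edgeR), a similar share. The median was −0.63 beside −0.12 over all genes. Sdha stood at 5.56 CPM (rat 1) and 32.1 CPM (rat 2), which rests on 1 and 5 UMIs. The other epithelial classes held between 19.9 CPM (goblet-like, rat 2) and 288 CPM (enterocyte-like, rat 1), so the EEC-like values overlapped only with goblet-like cells (log2 fold change −2.67 ± 0.66 (SE), adjusted p = 0.0238). Cox5a, a nuclear-encoded subunit of cytochrome c oxidase, stood at 217 and 160.3 CPM (log2 fold change −1.47 ± 0.40 (SE), adjusted p = 0.0404), against 978 and 946 CPM in crypt-like and 965 and 855 CPM in enterocyte-like cells. Goblet-like cells, with 90 and 181 UMIs of Cox5a, were close to the EEC-like level in rat 1 and below it in rat 2. Without the EEC-like sum of rat 1 the adjusted p was 0.273 for Sdha and 0.123 for Cox5a, and without that of rat 2 it was 0.0781 and 0.402.

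With the rat as a block 12 members were called lower in EEC-like cells, beside 1.93% of all genes lower and 6.8% higher. They were 3 of 4 complex II genes (Sdha −2.63 ± 0.62, Sdhd −1.48 ± 0.36, Sdhb −1.23 ± 0.32), 3 of 9 complex III genes (Uqcrc2 −1.30 ± 0.36, Uqcrc1 −1.22 ± 0.34, Uqcrh −1.19 ± 0.32), 3 complex IV genes (Cox5a, Cox6a1 and the Cox6b1 row ENSRNOG00000034161) and 3 of 35 complex I subunits (Ndufs7, Ndufv1, Ndufb9). Among the other lists the block gave 4 of 72 mitochondrial ribosome genes lower (1 without it), and the values that follow are from the fit without the block. The ADP/ATP carrier Slc25a4, the isoform typical of muscle and nerve, stood at 661 and 135 CPM in EEC-like cells and at 1.41 and 0.455 CPM in enterocyte-like cells (log2 fold change against the other classes 6.62 ± 0.65). Its paralog Slc25a5 was called lower at −1.94 ± 0.41, with 294 and 224 CPM in EEC-like against 3146 and 2763 CPM in enterocyte-like cells. Suclg2, a succinyl-CoA ligase subunit of the citric acid cycle, was called lower (−2.68 ± 0.55), and Hk2 higher (1.96 ± 0.35).

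In CHE-like cells, marked by Cftr and Best4, Cox7a1 was higher and Ndufa4 lower than the mean of the other classes. Enterocyte-like cells held more Cox7a1 in both rats, and goblet-like cells of rat 1 less Ndufa4. Of 85 nuclear members 1 was called higher and 2 lower (edgeR; 12 at an unadjusted p under 0.05, against 2052 of all 8648 genes), beside 6.96% of all genes higher and 1.58% lower. The share called higher lay below the background and that called lower near it, and the median was −0.46 beside −0.13 over all genes. Cox7a1 stood at 14.8 CPM (rat 1) and 36.2 CPM (rat 2), from 1 and 36 UMIs (log2 fold change 3.41 ± 0.77 (SE), adjusted p = 0.0138). Within rats 1 and 2 the log2 differences were smaller, at 2.12 and 1.80, and the other classes include the EEC-like sums at 0 UMIs. The CHE-like levels are compared with enterocyte-like cells next. The CHE-like values are 20.4% and 31.2% of the enterocyte-like level, where the abundant enterocyte genes reached 8.29% and 1.99%. The rat 1 value is a single UMI. In tuft-like cells of rat 2 Cox7a1 reached 6.75% of the enterocyte-like level, where those genes reached 34.4%. The part of free enterocyte RNA in the CHE-like values was not tested.

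Ndufa4, a subunit first ascribed to complex I and now placed in complex IV, stood at 370.2 CPM (rat 1) and 86.4 CPM (rat 2) in CHE-like cells. Crypt-like cells held 1351 and 1227 CPM, secretory progenitor-like cells 1185 and 937 CPM, tuft-like cells 1175 and 602 CPM, enterocyte-like cells 811 and 679.8 CPM and EEC-like cells 778 and 558 CPM. CHE-like values lay below all of these in each rat and next to goblet-like cells (341 and 110.2 CPM), and the difference passed the test (log2 fold change −1.96 ± 0.54 (SE), adjusted p = 0.0366). Its paralog Ndufa4l2 had 2 and 11 UMIs over all barcodes. Without the CHE-like sum of rat 1 the fold change was −2.77 (adjusted p = 0.0377), and without that of rat 2, which leaves 7 cells, it was −1.36 (adjusted p = 0.641). The call also was lost on library size alone (adjusted p = 0.102), without Mt- rows (0.0647) and with cells without epithelial UMIs kept (0.0579). The assembly factor Ndufaf5 was also called lower, but it rests on 0 UMIs in rat 1 and 1 UMI in rat 2. Cox7a1 without rat 1 passed, and without rat 2 its adjusted p was 0.876.

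With the rat as a block 2 members were called higher and 6 lower in CHE-like cells, beside 9.6% and 3.72% of all genes. Atp5if1, which halts ATP hydrolysis by the synthase when the proton gradient is lost, joined the higher genes (0.97 ± 0.29, adjusted p = 0.0357). It stood at 1777 and 1152 CPM in CHE-like, 1593 and 1088 CPM in enterocyte-like, 1381 and 859 CPM in crypt-like and 486 and 210.5 CPM in goblet-like cells. CHE-like cells held the highest epithelial value in each rat. Atp5mc1 (−1.53 ± 0.46, 0.0365), Ndufa12 (−1.31 ± 0.36), Ndufab1 (−1.16 ± 0.36) and Atp5po (−1.09 ± 0.33) joined the lower genes. Among the other lists the block gave 9 of 72 mitochondrial ribosome genes lower and 1 higher (0 without it) and 3 of 10 citric acid cycle genes lower and 1 higher (1 lower without it). In the fit without the block, the complex IV copper chaperone Cox17 (1.64 ± 0.39) and hexokinase 1 (Hk1, 5.51 ± 1.04) were called higher, and Hk2 (−3.60 ± 0.62) and Suclg2 (−1.77 ± 0.48) lower.

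**Figure D4:**
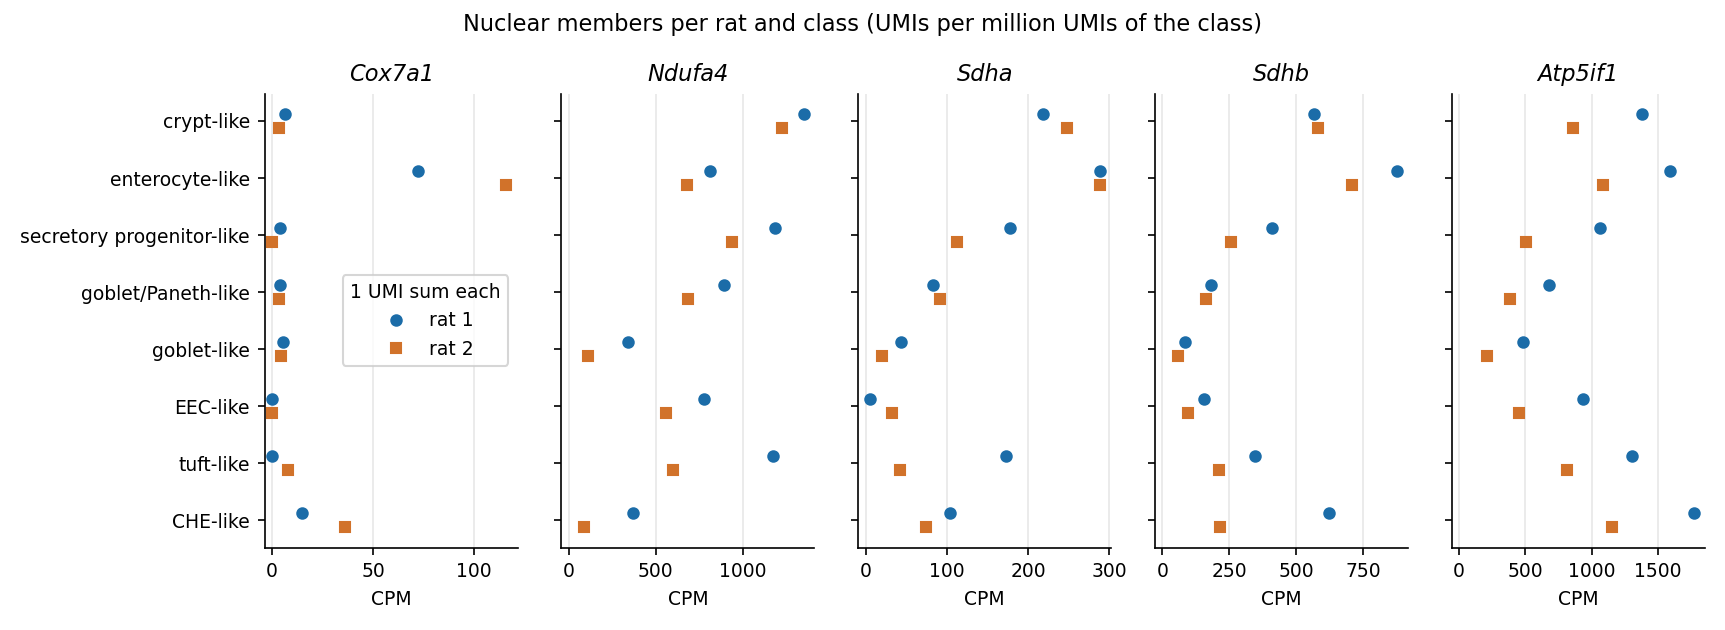
Levels of 5 nuclear members in CPM (x axes from 0) by class, 1 point per rat (circles, rat 1; squares, rat 2). Cox7a1 is highest in enterocyte-like cells (72.5 and 116 CPM) and next in CHE-like cells, where the rat 1 value is 1 UMI. Ndufa4 is lowest in CHE-like and goblet-like cells, and Sdha and Sdhb are lowest in goblet-like and EEC-like cells.

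Tuft-like cells showed no member past the threshold: edgeR called 0 of 85 nuclear members in either direction, 0 had an unadjusted p under 0.05, and DESeq2 called 0, beside 5.43% of all genes called higher and 1.17% called lower. The median was −0.10 beside 0.11 over all genes, and it was −0.49 without the tuft-like sum of rat 1, which carried crypt markers, and 0.34 without that of rat 2. Library size scaling moved the median of all genes to 0.50 and that of the members to 0.32, and the share of calls that were higher from 82.3% to 92.4%. The abundant enterocyte genes reached 9.08% and 34.4% of the enterocyte-like level in tuft-like cells. Genes of the other lists did change. Idh3a, a subunit of the citric acid cycle enzyme isocitrate dehydrogenase, was called higher (2.04 ± 0.46, adjusted p = 0.0143), with 130.0 and 309 CPM in tuft-like and 135 and 113 CPM in enterocyte-like cells. Hk1 (6.36 ± 0.78) and the glucose transporter Slc2a1 (2.15 ± 0.58) were called higher, and Hk2 (−1.80 ± 0.46) and Gpd2 (−1.66 ± 0.45) lower.

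Subunit c of ATP synthase, 2 of whose promoters are printed above, is made from 3 genes that code for the same mature protein, so their proportions change the source of the transcript and not the protein. Atp5mc1 made up 67.1% (67.0 to 67.3) in rat 1 and 59.8% (59.5 to 60.1) in rat 2 of the UMIs of the 3 genes in enterocyte-like cells (95% Wilson interval, counting error only). In crypt-like cells it made up 49.99% (49.7 to 50.3) in rat 1 and 41.2% (39.3 to 43.2) in rat 2. As class sums, enterocyte-like cells had the highest share in both rats. That share did not describe the upper villus tertile of rat 2. There Atp5mc1 stood at 306 CPM, close to Atp5mc3 at 291 CPM, with Atp5mc2 at 177 CPM. In the upper tertile of rat 1 the values were 2426, 565 and 553 CPM in the same order of genes. Goblet-like cells held 49.5% (44.5 to 54.4) in rat 1 and 30.4% (26.0 to 35.2) in rat 2 and CHE-like cells 42.8% (35.9 to 49.95) in rat 1 and 16.4% (13.9 to 19.4) in rat 2, the latter the lowest in each rat, although in rat 1 its interval overlapped that of every epithelial class but enterocyte-like cells. EEC-like cells held 46.8% and 34.0% and tuft-like cells 48.0% and 39.5%. Atp5mc2 made up 16.9% and 14.7% in enterocyte-like, 30.1% and 35.1% in crypt-like and 40.1% and 49.2% in CHE-like cells. Atp5mc3 made up 16.0% and 25.6%, 20.0% and 23.6% and 17.1% and 34.3% in the same classes.

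**Figure D5:**
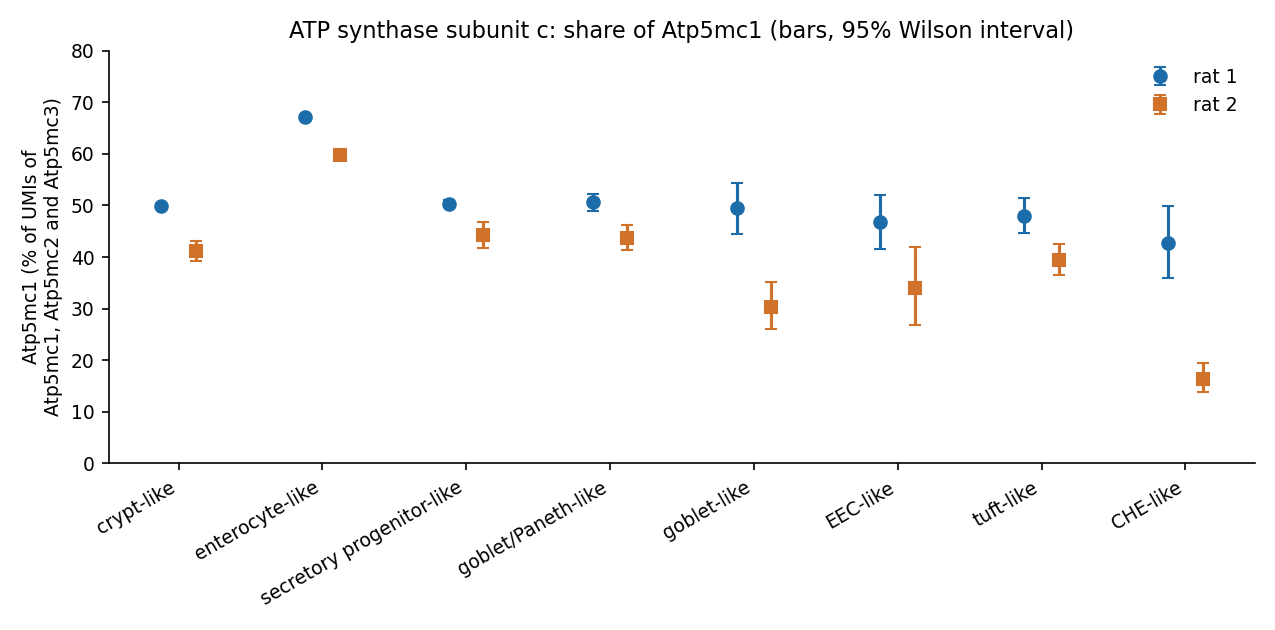
Atp5mc1 as a percentage of the UMIs of the 3 subunit c genes (y axis) by class and rat, with 95% Wilson intervals as bars. Enterocyte-like cells are highest at 67.1% and 59.8% and CHE-like cells lowest at 42.8% and 16.4% in rats 1 and 2.

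The other tissue isoforms were scarce. Cox4i2, Cox6a2 and Cox6b2, known from lung, muscle and testis, had 4 and 1, 68 and 1, and 17 and 29 UMIs over all barcodes of rats 1 and 2, and Cox8b had 1 and 0. Their common counterparts were in every class: Cox4i1 stood at 3502 and 2610.2 CPM in enterocyte-like and 941 and 584 CPM in goblet-like cells, Cox6a1 at 1672 and 1686 and 305 and 249.6 CPM, and Cox8a at 2456 and 1008 and 587 and 199.8 CPM. Cox7a2l, a related gene involved in joining complexes, stood at 225 and 187 and 109 and 77.5 CPM. Each was lower in goblet-like cells in both rats. The Cox6b1 row ENSRNOG00000024309 stood at 1205 and 749 CPM in enterocyte-like cells and the row ENSRNOG00000034161 at 163 and 85.2 CPM. Cox6b1, Uqcrb, Ndufv3 and Ndufa10l1 are each listed under 2 identifiers, and near-identical copies may share reads, so their rows are less certain. The 5 rows Ndufa1, Atp5pb, Cox7b2, Cox8c and the second Ndufa10l1 row are listed at 0 in both rats, and since Ndufa1 and Atp5pb code for parts of every complex I and V, a 0 there says nothing of expression. Ndufs6, also a complex I subunit gene, was low, with 77 and 53 UMIs.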

How the data were processed

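Single-cell suspensions of proximal jejunal epithelium from 2 rats were profiled by droplet-based 3′ RNA sequencing, with 1 library per rat. The authors deposited raw UMI counts per gene and barcode, made with Cell Ranger against Rnor6. Per the file headers the rat 1 library came from Cell Ranger 3.1.0 and the rat 2 library from 5.0.1. Version and rat cannot be told apart, and the intron setting is not given in the sources used here. No column of per-sample values of other samples was found. Because only 3′ ends were counted, levels were compared between classes, and isoforms only as shares of UMIs whose values are compared between classes.

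The study's limits were applied: between 200 and 5800 genes, over 5000 UMIs and at most 40% Mt- UMIs. Retained cells were clustered with Seurat 5.3.0 (R 4.3.3; resolution 0.3, then 0.5) with the rats integrated and without using members or Mt- rows as variable genes. The cluster first set aside as leukocyte-like, with the leukocyte gene Ptprc in 66.0% of its cells, was clustered again. All EEC-like cells (21 in rat 1 and 11 in rat 2) came from a sub-cluster of it, which was named from EEC markers and returned to the epithelium. Names were given to clusters from markers, with cut-offs on marker levels set after the clusters had been seen, and the classes tested come from these same cells. Scrublet (scanpy 1.11.5, Python 3.11.15) called 116 cells (1.94%) of rat 1 and 2 (0.09%) of rat 2, and they were kept. The call in rat 2 is too low to have worked, so doublets may remain. The libraries shared 28 barcodes, 4 of them among retained cells.

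Counts were summed per rat and class and tested with edgeR 4.0.16 (quasi-likelihood, TMM, filterByExpr, all classes in 1 fit, Benjamini-Hochberg over all genes tested, threshold 0.05). Tertiles of the villus score had a fit of their own. The same 2 rats gave every class, so the numbers pair the sums by animal. Deviations from the class means in the same rat correlated between 2 classes at a median of 0.263 over 28 pairs of classes (−0.006 to 0.692), and the fit with the rat as a block is given for the members' counts and for those counts of the other lists that it moved most. Alternatives were DESeq2 1.42.0 and the settings named in the closing section. The edgeR step was tested on simulated data. Intervals of shares are 95% Wilson intervals (SciPy 1.17.1) and cover counting error only.

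Named members were all Mt- rows, the isoform groups, the Sdh genes, Atp5if1 and, per comparison, the 5 called nuclear members with the largest change in each direction that held in both rats, with 3 per direction for the other lists. Genes named for the blocked fits were chosen after their values were seen, by size. The members and lists were chosen with earlier results of these data known. Some genes selected by the rule for named members are not reported here.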

Additional observations from a re-analysis of the deposited data

Results flagged for a closer look

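Signal was also present in barcodes and cells that no comparison used. Barcodes over 5000 UMIs that exceeded the limit of 40% Mt- UMIs numbered 182 in rat 1 and 1510 in rat 2. They held 21.3 and 61.5 Mt- UMIs per nuclear member UMI, against 1.96 and 3.77 in barcodes with at most 20% Mt- UMIs, and the nuclear members made up 4.97% and 2.92% of their UMIs outside Mt- rows. Barcodes of at most 5000 UMIs (5816 and 4439) held 9.79 and 10.1 Mt- UMIs per nuclear member UMI.

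Cells set aside as non-epithelial had members too. In leukocyte-like cells (65 and 183) the nuclear members made up 7.26% and 2.00% of UMIs outside Mt- rows. In erythroid-like cells (28 and 243) they made up 0.678% and 0.225%, below every epithelial class in the same rat.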

How the results depend on the processing

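Cox7a1 kept its direction in the enterocyte-like and CHE-like comparisons, while the counts of nuclear members called shifted with most settings. The rat as a block moved them to 29 higher (enterocyte-like against crypt-like), 4 lower (same comparison), 2 higher and 6 lower (CHE-like), 12 lower (EEC-like), 39 lower (goblet side) and 20 lower (upper tertile), and changed no other count of these. DESeq2 gave 2 higher and 1 lower (CHE-like), 5 lower (EEC-like), 18 lower (goblet side) and 8 lower (upper tertile). For DESeq2 and for all settings that follow, the share of all genes called is not given here. Nothing about the members as a set is therefore read from their counts. Library size without TMM gave 1 higher and 4 lower (enterocyte-like), 0 lower (CHE-like), 1 lower (EEC-like) and 16 lower (goblet side). No filter on low counts gave 1 higher (enterocyte-like), 1 higher and 1 lower (EEC-like), 1 higher (tuft-like) and 2 lower (upper tertile). Without Mt- rows the counts were 1 higher (enterocyte-like) and 1 lower (CHE-like), and with at most 20% Mt- UMIs 0 lower (enterocyte-like), 1 lower (EEC-like) and 1 lower (upper tertile). Thinning to 5000 UMIs gave 1 higher (enterocyte-like), 0 higher and 1 lower (CHE-like), 1 lower (EEC-like) and 1 lower (goblet side). No limit on Mt- UMIs gave 1 higher and 4 lower (enterocyte-like), 1 lower (CHE-like) and 2 lower (goblet side). Rats merged without integration gave 1 higher and 1 lower (enterocyte-like), 2 higher and 1 lower (CHE-like), 2 lower (tuft-like) and 21 lower (goblet side). All genes as variable genes gave 1 higher and 4 lower (enterocyte-like), and cells without epithelial UMIs kept gave 1 higher and 0 lower (enterocyte-like), 0 lower (CHE-like), 1 lower (EEC-like) and 2 lower (goblet side). No upper limit on genes per cell, chosen after seeing the data, gave 1 lower (enterocyte-like).

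Leaving out 1 class sum at a time, also chosen after seeing the data, gave 1 higher and 0 to 2 lower (enterocyte-like), 0 to 1 higher and 0 to 1 lower (CHE-like), 0 lower (EEC-like) and 1 to 5 lower (goblet side). The median of the nuclear members in enterocyte-like against crypt-like cells ran from 0.049 to 1.114 in these fits. In such a fit the lone sum is assumed to vary like the other classes. The same median reversed from 0.732 to −0.118 on library size, to −0.202 without replicate 1 and to −0.060 without replicate 2, which are CPM ratios within 1 rat and hence without TMM. The median of all genes lay at −1.311 and −0.632 in these, so the members stayed above the median gene. The causes of the other shifts were not tested. Depth limits the CHE-like sum of rat 1 (7 cells), the EEC-like sums (21 and 11 cells) and the scarce assembly factors most.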
